A study of Mus musculus with 6 samples.

Results

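The 4 genes examined are Gata1, Gata2 and Gata3, which encode the zinc finger transcription factors of the blood GATA family, and Zfpm1, which encodes their cofactor FOG1. They are 4 of 21631 protein-coding genes of the mouse annotation, chosen by symbol, and every ATAC-seq peak that overlapped one of them or the 100 kb on either side was taken. Peaks of the 6 libraries that shared at least 1 bp were merged into union regions, and 87 of the 84592 union regions of chromosomes 1 to 19 and X fell into the 4 windows, with 15 around Gata1, 24 around Gata2, 14 around Gata3 and 34 around Zfpm1. ATAC-seq maps accessible chromatin through the preference of the Tn5 transposase for inserting into open DNA, and here it was applied to hematopoietic stem cells, gated in bone marrow as lineage-negative, Sca-1+, c-Kit+, CD48-, CD150+ cells. The 3 Dek_cKO libraries came from Dek fl/fl mice carrying Tie2-Cre, a transgene in which Tek control DNA drives the Cre recombinase in endothelial and blood cells, and the 3 Dek_fl libraries came from Dek fl/fl mice without it. Both groups thus share the floxed alleles of Dek, a chromatin-bound nuclear protein, and both were of the C57BL/6 strain, at 12 weeks of age in the protocol and 3 months in the sample labels. The labels do not say whether the libraries of a group came from separate animals, and the design text speaks of duplicates where the labels give 3 libraries, so the spread behind each p-value is that among libraries and may be technical.

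GATA2 is required for the formation and upkeep of hematopoietic stem cells. GATA1 takes over at many of its sites as cells turn erythroid, megakaryocytic or eosinophilic, and FOG1 binds the amino-terminal finger of GATA factors and brings in the NuRD chromatin remodelling complex. GATA3 is best known from T cells and type 2 innate lymphoid cells and is also expressed in stem cells. Transcription of Gata2 is controlled by a well studied set of elements named by their distance in kb from its distal start site, of which the intronic +9.5 element and the far upstream −77 element are enhancers needed for blood formation, while the −3.9, −2.8 and −1.8 elements lie just upstream.

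Calls at the start sites differed among the 4 genes. The promoter windows below run from 250 bp before to 50 bp after a RefSeq start site (GRCm38.p6, the build mm10), are written 5′ to 3′ on the gene's strand, and are shown because they span no call in any library (Gata1), calls in 4 libraries (both Gata2 start sites) and calls in all 6 (Zfpm1). Capitals mark CANNTG, the E-box core read by partners of GATA factors such as TAL1.
Gata1 chrX:7967861-7968160, minus strand: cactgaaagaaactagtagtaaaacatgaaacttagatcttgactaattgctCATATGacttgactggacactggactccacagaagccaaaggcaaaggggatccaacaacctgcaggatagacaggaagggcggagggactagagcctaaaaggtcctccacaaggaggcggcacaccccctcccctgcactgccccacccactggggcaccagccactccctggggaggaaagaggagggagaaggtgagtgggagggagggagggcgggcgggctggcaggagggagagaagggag
Gata2 distal chr6:88193641-88193940, plus strand: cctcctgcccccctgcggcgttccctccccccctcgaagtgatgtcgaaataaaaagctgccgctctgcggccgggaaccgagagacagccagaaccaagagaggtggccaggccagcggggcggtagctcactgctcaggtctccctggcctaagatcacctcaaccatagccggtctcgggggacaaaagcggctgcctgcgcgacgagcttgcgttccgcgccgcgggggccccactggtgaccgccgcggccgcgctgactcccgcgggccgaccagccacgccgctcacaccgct
Gata2 inner chr6:88198414-88198713, plus strand: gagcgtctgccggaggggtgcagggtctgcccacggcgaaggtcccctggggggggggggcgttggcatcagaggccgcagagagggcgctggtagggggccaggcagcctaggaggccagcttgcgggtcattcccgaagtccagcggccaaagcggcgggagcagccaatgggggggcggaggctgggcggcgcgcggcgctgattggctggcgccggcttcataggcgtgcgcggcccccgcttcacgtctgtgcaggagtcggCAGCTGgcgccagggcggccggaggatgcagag
Zfpm1 chr8:122281891-122282190, plus strand: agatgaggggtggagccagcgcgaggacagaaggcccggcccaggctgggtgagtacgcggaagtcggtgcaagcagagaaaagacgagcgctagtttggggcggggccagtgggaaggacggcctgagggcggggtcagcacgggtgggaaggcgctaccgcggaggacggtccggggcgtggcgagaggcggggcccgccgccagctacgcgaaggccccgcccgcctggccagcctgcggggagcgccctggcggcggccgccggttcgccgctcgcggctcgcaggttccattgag

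Across all RefSeq promoters of the same length, 32.9% were overlapped by a peak in all 6 libraries and 49.3% in none. The Gata1 promoter held 4 CpG dinucleotides, against 32 in the distal Gata2 promoter, 29 in the inner one, 22 in the Gata3 promoter and 37 in the Zfpm1 promoter. GATAA, a form of the GATA motif, was searched on both strands and occurred in 0 of these 5 windows, and 25.4% of 32817 RefSeq promoters hold it. Other forms of the motif, such as GATAG, were not searched. CANNTG, which reads as the same letters on either strand, occurred once in the Gata1, inner Gata2 and Gata3 promoters and not in the others, and 72.3% of promoters hold it. GGAA, the ETS core, was found 2 times at Gata1, 3 and 1 times at the distal and inner Gata2 starts, 2 times at Gata3 and 4 times at Zfpm1, and 96.0% of promoters hold it. TGTGG, the RUNX core, was found 2 times at Gata1 and 1 time at Gata3, and 55.9% of promoters hold it. Motifs were counted separately, without regard to overlaps between them.

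What could be called differed between libraries. The lists held 70756, 73173 and 27170 peaks in Dek_cKO libraries 1, 2 and 3, and 52451, 71555 and 23813 peaks in Dek_fl libraries 1, 2 and 3. Summit pileups, the whole number of reads or fragments stacked at a peak's highest point, were recovered from the deposited fold and −log10 p-value, together with the local background that the peak caller had set against them. Against the genome-wide background, the lowest pileup called was 2.41-, 2.61- and 9.22-fold in Dek_cKO libraries 1, 2 and 3, and 2.58-, 2.23- and 7.95-fold in Dek_fl libraries 1, 2 and 3. Replicate 3 of both groups therefore missed weak peaks that the other 4 libraries could show, and the absence of a call does not mean closed chromatin. In a sorted population, fewer cells with an open site and less opening in each cell cannot be told apart.

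The group labels were set against Tek. At the end of Tek, whose control DNA is part of the Tie2-Cre transgene, the summit pileup over background was 9.64, 8.70 and 13.2 in the libraries labelled Dek_cKO, against 98.0, 149 and 91.4 in the libraries labelled Dek_fl. A further peak in the Tek body was called in 0 of 3 libraries labelled Dek_cKO and in 3 of 3 libraries labelled Dek_fl. The high values thus stood in the libraries whose label names no transgene, and every direction given here rests on the labels as deposited. Of 8 stem cell markers, 7, 7 and 5 had a peak within 1 kb of a gene end in Dek_cKO libraries 1, 2 and 3, and 7, 8 and 2 in Dek_fl libraries 1, 2 and 3. Kit and Cd34 had one in all 6 libraries and Ly6a in 1. Among markers of other cells, 4 of 5 erythroid ones, Hbb-b1, Hba-a1, Slc4a1 and Alas2, had none in any library. Elane (neutrophil), Cd8a (T cell) and Cdh5 (endothelial) also had none, while Itga2b, Pf4 and Kdr had one in all 6. The remaining erythroid marker likewise showed such a call in each Dek_cKO library and each Dek_fl library. Reads of near-identical copies, as of the globin genes, may not be placed uniquely, so their lack of calls is uncertain. Of 4 B cell markers, 4, 4 and 1 had a gene-end peak in Dek_cKO libraries 1, 2 and 3, and 1, 4 and 0 in Dek_fl libraries 1, 2 and 3. Of 3 mast cell and basophil markers, 3, 3 and 0 did in Dek_cKO and 1, 3 and 0 in Dek_fl, of 4 T cell markers 2, 3 and 1 in Dek_cKO and 2, 2 and 0 in Dek_fl, and of 4 neutrophil and monocyte markers 2, 2 and 3 in Dek_cKO and 1, 2 and 1 in Dek_fl, with S100a8 called in 3 Dek_cKO libraries and 1 Dek_fl library. Of 4 endothelial and 3 megakaryocyte markers, 3, 3 and 2 each had one in Dek_cKO libraries 1, 2 and 3, and likewise 3, 3 and 2 in Dek_fl libraries 1, 2 and 3. The part of such cells in the results below was not tested.

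Gata2 lies on chromosome 6 from 88193891 to 88207032 (plus strand, gene ID 14461), and the strongest region inside it was the +9.5 element. Its region, chr6:88203019-88204172, was called in 6 of 6 libraries, with summits that lay within 6 bp of each other, between 9.366 and 9.372 kb downstream of the distal start. The fold over local background was 4.79, 5.47 and 7.23 in Dek_cKO libraries 1, 2 and 3, against 4.35, 4.50 and 7.41 in Dek_fl libraries 1, 2 and 3. Within each list these folds stood at percentiles 45.6, 52.4 and 36.6 in Dek_cKO and 49.3, 48.6 and 43.9 in Dek_fl. The groups overlapped on both scales. In the limma test on rank scores, in which folds were ranked within each library over the 19683 regions called in all 6 and turned into normal scores, Dek_cKO lay lower by −0.18 ± 0.32 (SE, n = 3 per group), with a Benjamini-Hochberg adjusted p of 1.0.

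The −77 element, chr6:88116417-88117460, was also called in 6 of 6 libraries. Its fold was 4.01, 3.87 and 7.37 in Dek_cKO libraries 1, 2 and 3, against 3.10, 2.95 and 5.75 in Dek_fl libraries 1, 2 and 3. The Dek_cKO value was the higher in each replicate number. So was the median fold of all peaks, at 5.05, 5.32 and 8.31 in Dek_cKO libraries 1, 2 and 3, against 4.40, 4.56 and 7.85 in Dek_fl. At the element the groups overlapped, since replicates 1 and 2 of Dek_cKO lay below replicate 3 of Dek_fl. Within the lists the folds stood at percentiles 32.2, 26 and 38.3 in Dek_cKO and 16.5, 17 and 20.3 in Dek_fl, which do not overlap, as for 2.4% of all regions called in the 6 libraries. Over the shared regions alone, on whose ranks the test was made, the scores were −1.59, −1.87 and −0.64 in Dek_cKO and −1.92, −2.10 and −1.10 in Dek_fl, and these do overlap. The difference in rank score was 0.34 ± 0.42 (SE, n = 3 per group; limma, adjusted p = 1.0). On the log2 scale of summit pileup over background, centred on the median shared region of each library, it was −0.0041 ± 0.39 (SE).

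The −3.9 element, chr6:88189383-88190258, was called in 3 of 3 Dek_cKO and 2 of 3 Dek_fl libraries, with summits 4.10 to 4.22 kb upstream. Its summit pileup was 158, 127 and 22 in Dek_cKO libraries 1, 2 and 3, and 72 and 144 in Dek_fl libraries 1 and 2. The missing call was in Dek_fl library 3, in which the lowest pileup called at background level was 8, against 7 in Dek_cKO library 3. No peak summit fell within 500 bp of the −2.8 and −1.8 positions in any library. The positions of these elements are background knowledge and were entered after peak positions had been seen, so a match is a description only.

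At the distal start itself, the region chr6:88193514-88194535 was called in the 4 libraries of replicates 1 and 2, with folds of 2.27 and 1.86 in Dek_cKO libraries 1 and 2 and 2.13 and 1.79 in Dek_fl libraries 1 and 2. Such folds were among the lowest of their lists, at percentiles 1.94 and 0.172 in Dek_cKO and 0.553 and 0.335 in Dek_fl. The pileups behind them were not low, at 105 and 60 in Dek_cKO and 53 and 94 in Dek_fl, which is 18.1-, 13.1-, 10.5- and 13.1-fold over the genome-wide background. The local background was high there, at percentiles 97.9, 96.7, 97.3 and 97 of all peaks in the same 4 libraries, and the deposited fold divides by it. The peak of Dek_fl library 1 overlapped the promoter window by only 12 bp, against 300 bp in Dek_cKO libraries 1 and 2 and Dek_fl library 2. The inner start, in chr6:88196896-88199589, had higher pileups of 137 and 115 in Dek_cKO libraries 1 and 2 and 75 and 138 in Dek_fl libraries 1 and 2. Its folds of 2.79 and 3.33 in Dek_cKO and 2.96 and 2.47 in Dek_fl overlapped between the groups.

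**Figure D1:**
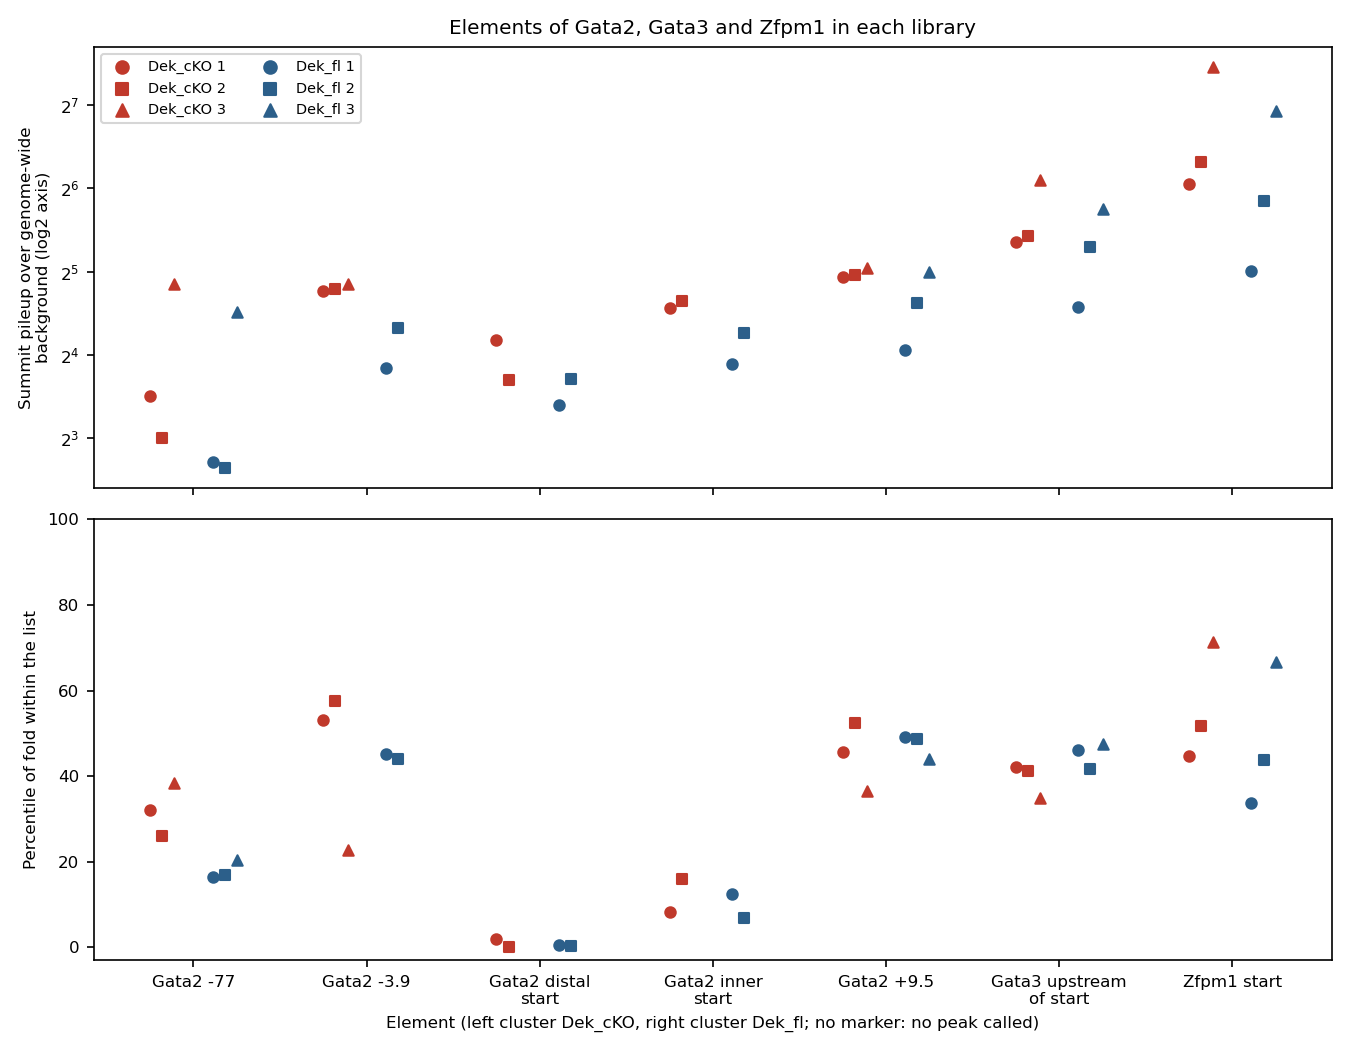
Summit pileup over the genome-wide background (upper panel, log2 axis) and percentile of the deposited fold within its list (lower panel, percent) at 7 elements of Gata2, Gata3 and Zfpm1; red markers, left of each blue cluster, are Dek_cKO and blue markers are Dek_fl, with 1 marker per library and none where no peak was called. The Gata2 distal start has percentiles of fold between 0.172 and 1.94 at pileups 10.5- to 18.1-fold over background.

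The rest of the Gata2 window held the only region of the 4 windows with calls throughout 1 group and in no library of the other. It was chr6:88253925-88254491, 60.3 kb downstream of the start and outside annotated genes, with folds of 3.12, 5.31 and 5.91 and summit pileups of 24, 32 and 10 in Dek_cKO libraries 1, 2 and 3, and no call in Dek_fl. Its folds were modest within their lists, at percentiles 15.3, 49.8 and 18.6. Over all union regions, 0.104% were called in 3 Dek_cKO and 0 Dek_fl libraries and 0.00355% in the opposite pattern, of which the 4 windows held 0. When all lists were shortened to their 23809 peaks of highest −log10 p-value, this region was no longer called in 3 Dek_cKO libraries.

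Upstream of Gata2, a region at −69.8 kb, chr6:88123276-88124618, lay outside genes and was called in all 6 libraries. It had folds of 7.97, 8.54 and 7.76 in Dek_cKO libraries 1, 2 and 3, against 5.11, 6.67 and 5.62 in Dek_fl libraries 1, 2 and 3. All Dek_cKO folds were above all Dek_fl folds, as for 13.2% of all regions called in the 6 libraries, but fold sizes differ between lists, and the rank scores of 0.34, 0.23 and −0.50 in Dek_cKO and −0.51, 0.15 and −1.17 in Dek_fl overlapped. The difference of 0.53 ± 0.41 (SE, n = 3 per group) was the largest of the 23 shared regions in the 4 windows and did not pass the test (limma, unadjusted p = 0.224, adjusted p = 1.0). With the replicate number as a block the unadjusted p was 0.0610 and the adjusted p 1.0. The other shared regions of this window were at −87.7 kb, at the end of Rpn1, which encodes a subunit of the oligosaccharyltransferase, at −27.7 kb in the uncharacterised Gm38708, and at 35.5 kb outside genes. Their mean percentiles of fold over the 6 libraries were 65.6, 55.3 and 61.6, and their rank score differences were 0.21, 0.34 and 0.16.

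**Figure D2:**
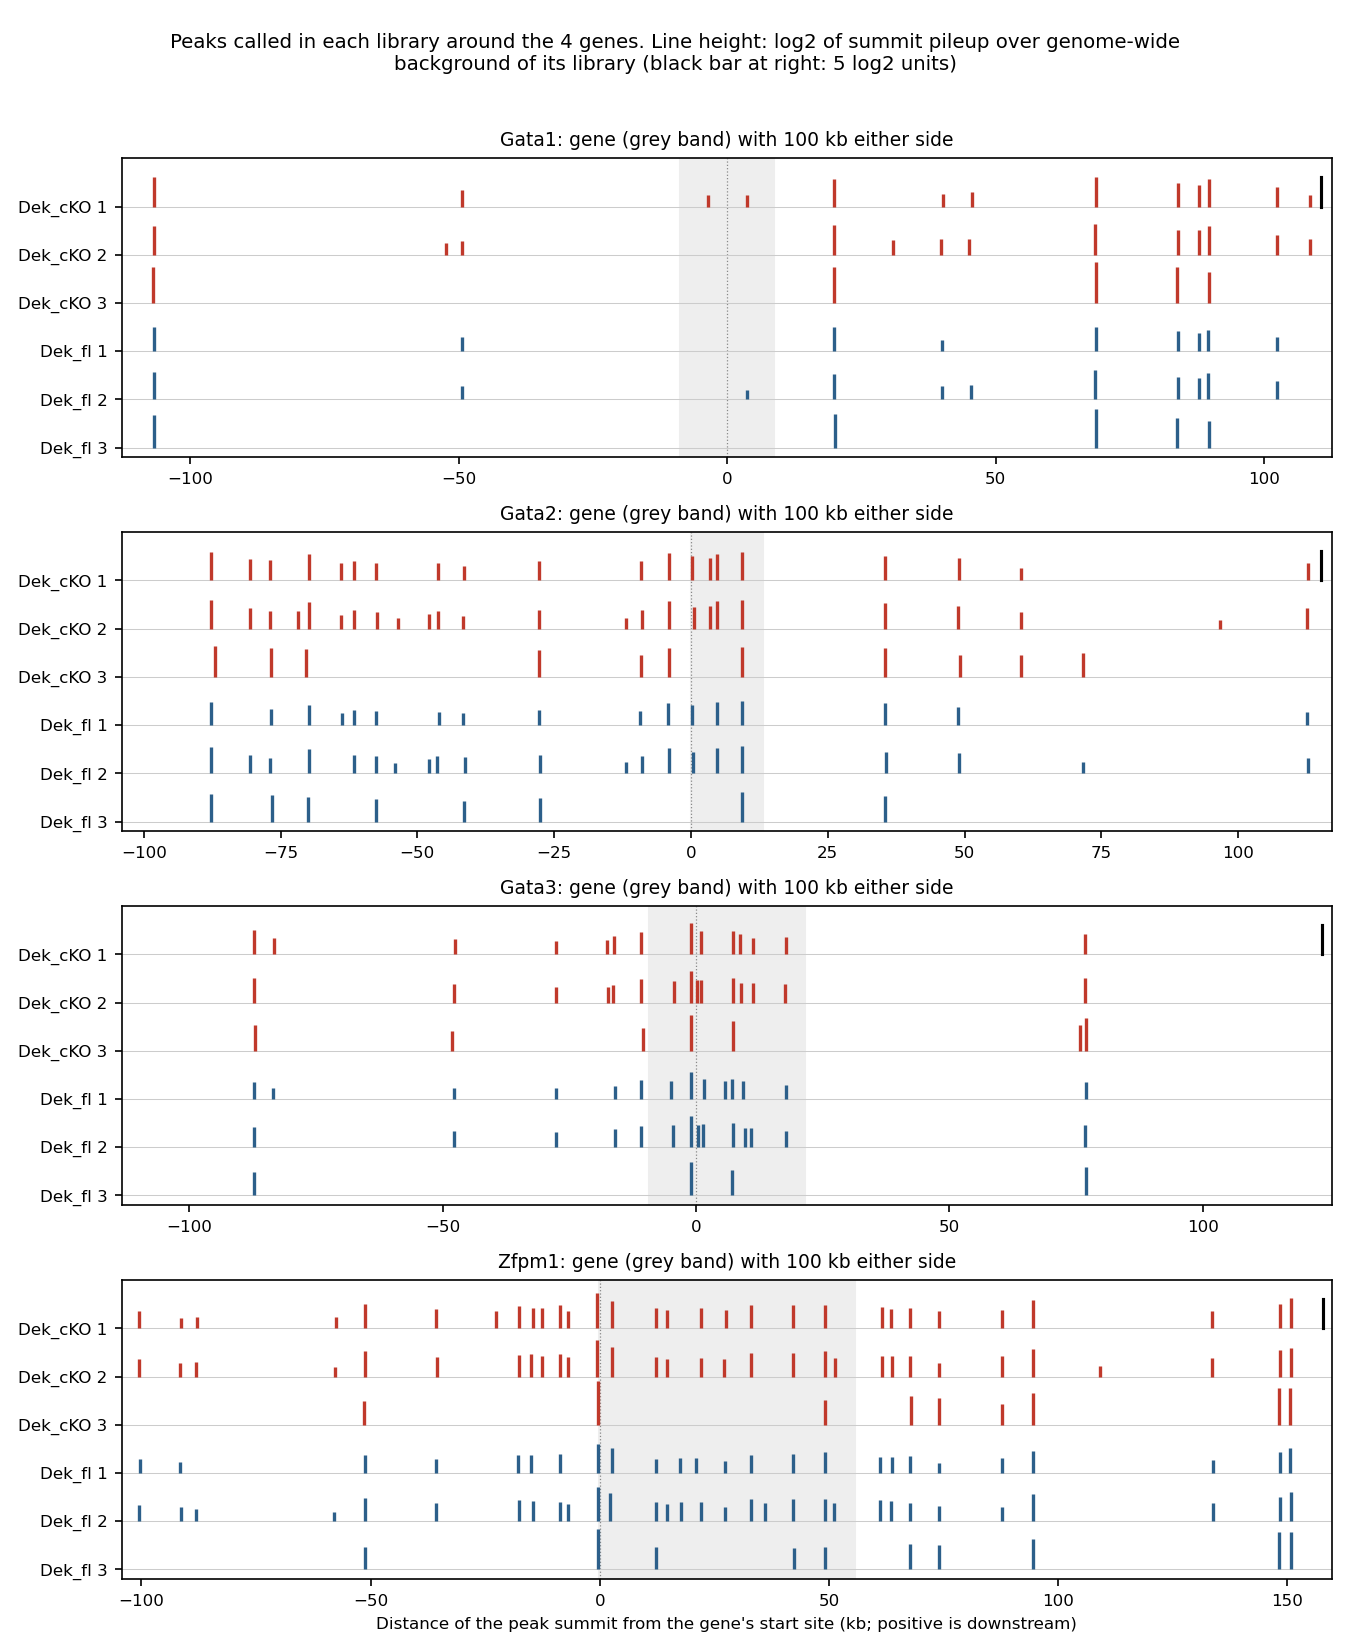
Peaks called around Gata1, Gata2, Gata3 and Zfpm1 in the 6 libraries, Dek_cKO in red above Dek_fl in blue; the horizontal axis is the distance of the summit from the start site (kb, positive downstream), the grey band is the gene, and line height is log2 of summit pileup over the genome-wide background. The Gata2 window shows 1 position, 60.3 kb downstream, with a line in 3 Dek_cKO libraries and in no Dek_fl library.

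Gata1 lies on chromosome X from 7959260 to 7976663 (minus strand, gene ID 14460) and was nearly without calls. No library had a peak at its ends or over its promoter, as for 30.3% of protein-coding genes, which had no gene-end peak in any library. Inside the gene, a region 3.66 to 3.73 kb downstream of the start was called in Dek_cKO library 1, with a fold of 3.67, and in Dek_fl library 2, with a fold of 2.81. A second one at −3.56 kb was called in Dek_cKO library 1 only, with a fold of 3.67. All 3 peaks stood on the genome-wide background of their library and had pileups of 22 to 24, where 14 was the lowest called at that background in Dek_cKO library 1 and 16 in Dek_fl library 2. No region inside Gata1 was called in all 6 libraries, so none entered the rank test of the groups.

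The strong regions of the Gata1 window all belonged to neighbours. The region at 19.9 kb, at an end of Hdac6, which encodes a cytoplasmic deacetylase, had folds of 9.09, 10.6 and 14.8 in Dek_cKO libraries 1, 2 and 3, and 9.57, 7.55 and 13 in Dek_fl libraries 1, 2 and 3. These were high in every list, at percentiles 92.8, 95.6 and 94.5 in Dek_cKO and 98.9, 89.4 and 91.0 in Dek_fl, and the groups overlapped. The region at −106.8 kb at an end of Suv39h1, a histone H3 lysine methyltransferase, had a mean percentile of 92.3, the one at 68.7 kb between Pqbp1 and Timm17b 88.0, the one at 89.7 kb at Otud5 and the kinase gene Pim2 63.6, and the one at 83.9 kb at Pim2 and Slc35a2 61.9. Their rank score differences were −0.28, −0.14, 0.21 and 0.086, and that of the Hdac6 region was −0.13. On the centred pileup scale all 5 differences were above 0, at 0.0034 to 0.22, so the sign of 3 of them depended on the scale. A region in the body of Otud5, 108.5 kb from the Gata1 start, was called in Dek_cKO libraries 1 and 2, with folds of 3.67 and 4.21, and in 0 Dek_fl libraries.

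Gata3 lies on chromosome 2 from 9857078 to 9887953 (minus strand, gene ID 14462), with 7 regions in its body and 1 at its end. The strongest, chr2:9878923-9880329, began just upstream of the promoter window, had its summit at −0.98 to −1.09 kb from the start site and was called in 6 of 6 libraries. This region also lay within 1 kb of an end of the neighbouring gene 4930412O13Rik, so it cannot be assigned to Gata3 alone. Its summit pileup was 237, 197 and 52 in Dek_cKO libraries 1, 2 and 3, against 120, 282 and 54 in Dek_fl libraries 1, 2 and 3. Relative to the genome-wide background this was 40.8-, 42.9- and 68.5-fold in Dek_cKO and 23.8-, 39.2- and 53.7-fold in Dek_fl. Dek_cKO was higher in each replicate number, but so was the median shared region, at 25.6-, 27.8- and 46.1-fold in Dek_cKO and 14.9-, 22.9- and 33.8-fold in Dek_fl. After centring on that median the log2 difference was −0.085 ± 0.15 (SE, n = 3 per group), and the rank score difference was −0.29 ± 0.36 (SE; limma, adjusted p = 1.0).

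The promoter window of Gata3 was overlapped by a peak in 1 Dek_cKO library and 1 Dek_fl library, both replicate 2, by 88 and 44 bp. Within the body, a region at 7.23 kb was called in all 6 libraries with folds of 2.83, 3.62 and 7.38 in Dek_cKO libraries 1, 2 and 3 and 3.20, 3.09 and 4.51 in Dek_fl libraries 1, 2 and 3. The groups overlapped there, and the rank score difference of 0.20 ± 0.45 turned to −0.37 without Dek_cKO library 3. The remaining body regions, at 17.7, 11.2, 9.06, 1.02 and −4.48 kb, were called in 3 or 4 of the 4 libraries of replicates 1 and 2 and in no replicate 3 library. Those at 11.2, 9.06, 1.02 and −4.48 kb had folds at percentiles 0.0191 to 5.22 where they were called, and the local background of the region at 1.02 kb stood at percentiles 98.2 to 98.7. The one at 17.7 kb had folds of 6.03 and 6.56 in Dek_cKO libraries 1 and 2, against 4.68 and 5.51 in Dek_fl libraries 1 and 2, at percentiles 64.2 and 65.9 in Dek_cKO and 56.0 and 65.7 in Dek_fl. The folds did not overlap between the groups, as for 65% of all regions called in these 4 libraries with Dek_cKO above. The percentiles did overlap, since Dek_cKO library 1 at 64.2 lay below Dek_fl library 2 at 65.7.

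The region at the upstream end of Gata3, at −10.8 kb and shared with the end of the noncoding 9230102O04Rik, was called in 3 Dek_cKO and 2 Dek_fl libraries. Its fold was 5.04, 5.45 and 4.49 in Dek_cKO libraries 1, 2 and 3, and 3.82 and 3.52 in Dek_fl libraries 1 and 2. In Dek_cKO library 3 it had a pileup of 12 and a −log10 p-value of 6.95, at percentile 2.55 of that list, so the call stood near the threshold of the replicate 3 lists. In the flanks the regions called in all 6 libraries were at 76.9 kb, outside genes, and at −87.2 kb, in Taf3, which encodes a subunit of the basal factor TFIID. Their mean percentiles of fold were 67.0 and 62.1, and their rank score differences 0.23 ± 0.48 and 0.39 ± 0.40 (SE).

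Zfpm1 lies on chromosome 8 from 122281856 to 122337862 (plus strand, gene ID 22761) and had the strongest start site of the 4 genes. The region chr8:122280703-122282135 was called in 6 of 6 libraries, with summits 0.31 to 0.61 kb upstream of the start. Its −log10 p-value was 131, 142 and 89.6 in Dek_cKO libraries 1, 2 and 3, against 43.8, 125 and 77.0 in Dek_fl libraries 1, 2 and 3. These stood at percentiles 94.8, 96.5 and 95.9 of the Dek_cKO lists and 85.6, 94.4 and 93.7 of the Dek_fl lists, which do not overlap, as for 2.26% of all regions called in the 6 libraries. The folds of 4.71, 5.40 and 10.4 in Dek_cKO and 3.72, 4.24 and 9.36 in Dek_fl were nearer the middle of the lists, at percentiles 44.7, 51.7 and 71.2 in Dek_cKO and 33.6, 43.7 and 66.7 in Dek_fl. The local background was 13.9-, 14.5- and 15.6-fold over the genome-wide one in Dek_cKO and 8.51-, 13.4- and 12.1-fold in Dek_fl, at percentiles 98.1 to 99.9. The rank score difference was 0.11 ± 0.54 (SE, n = 3 per group; limma, adjusted p = 1.0), and the centred log2 pileup difference was 0.18 ± 0.25 (SE).

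The body of Zfpm1 carried 11 further regions, 8 of them called in replicates 1 and 2 alone. The region at 49.2 kb was called in all 6 libraries, with folds of 6.21, 7.88 and 6.67 in Dek_cKO libraries 1, 2 and 3 and 5.60, 5.88 and 5.04 in Dek_fl libraries 1, 2 and 3. Here too all Dek_cKO folds were above all Dek_fl folds, as for 13.2% of all regions called in the 6 libraries. The percentiles of 66.3, 79.4 and 29.0 in Dek_cKO and 71.3, 71.2 and 10.8 in Dek_fl overlapped. The region at 2.60 kb had pileups of 154 and 156 in Dek_cKO libraries 1 and 2 and 103 and 195 in Dek_fl libraries 1 and 2, with folds of only 1.87 and 2.32 in Dek_cKO and 2.41 and 2.03 in Dek_fl, on a local background at percentiles 99.8 and 99.9. At 17.5 kb, chr8:122299399-122300007 was called in 0 Dek_cKO libraries and in Dek_fl libraries 1 and 2, with folds of 2.55 and 2.99. At 36.1 kb a weak region was called in Dek_fl library 2 only, with a fold of 2.54, and at 12.2 and 42.2 kb calls were made in Dek_cKO libraries 1 and 2 and in all 3 Dek_fl libraries. The folds at 12.2 kb were 4.27 and 3.92 in Dek_cKO libraries 1 and 2, and 2.53, 3.94 and 4.93 in Dek_fl libraries 1, 2 and 3. At 42.2 kb they were 4.41 and 5.41 in Dek_cKO libraries 1 and 2, and 4.03, 5.06 and 4.12 in Dek_fl libraries 1, 2 and 3, and the groups overlapped at both. The regions at 22.1, 27.3 and 33.0 kb were called in all 4 libraries of replicates 1 and 2, with folds of 4.02 to 5.58 in Dek_cKO and 2.81 to 4.82 in Dek_fl. In each of the 3 both Dek_cKO folds were above both Dek_fl folds, as for 65% of all regions called in these 4 libraries. The percentiles at 27.3 kb, 44.9 and 41.1 in Dek_cKO and 8.79 and 35.5 in Dek_fl, did not overlap, as for 22.3% of all such regions, whereas those at 22.1 and 33.0 kb overlapped. Those at 14.6 and 51.2 kb had folds of 2.57 to 3.61 in the 3 and 2 libraries that called them, in both groups.

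The Zfpm1 flanks lie among other genes. The region at 94.4 kb at an end of the RNA-processing gene Zc3h18 had the highest mean percentile of fold in the window, 86.1, with folds of 9.18, 9.72 and 10.7 in Dek_cKO libraries 1, 2 and 3 and 6.89, 8.20 and 10.8 in Dek_fl libraries 1, 2 and 3. Its groups overlapped. Those at −51.3 kb in Zfp469, at 150.7 kb at Cyba and Mvd, at 74.0 kb at Trhr2 and at 67.7 kb outside genes had mean percentiles of 56.1, 52.3, 42.1 and 39.6 and rank score differences of 0.31, −0.34, 0.15 and 0.18. Cyba encodes a subunit of the phagocyte NADPH oxidase, and Mvd an enzyme of sterol synthesis. An intragenic region of Zfp469 at −12.6 kb was called in Dek_cKO libraries 1 and 2, with folds of 3.02 and 3.29 and pileups of 62 and 53, and in 0 Dek_fl libraries.

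**Figure D3:**
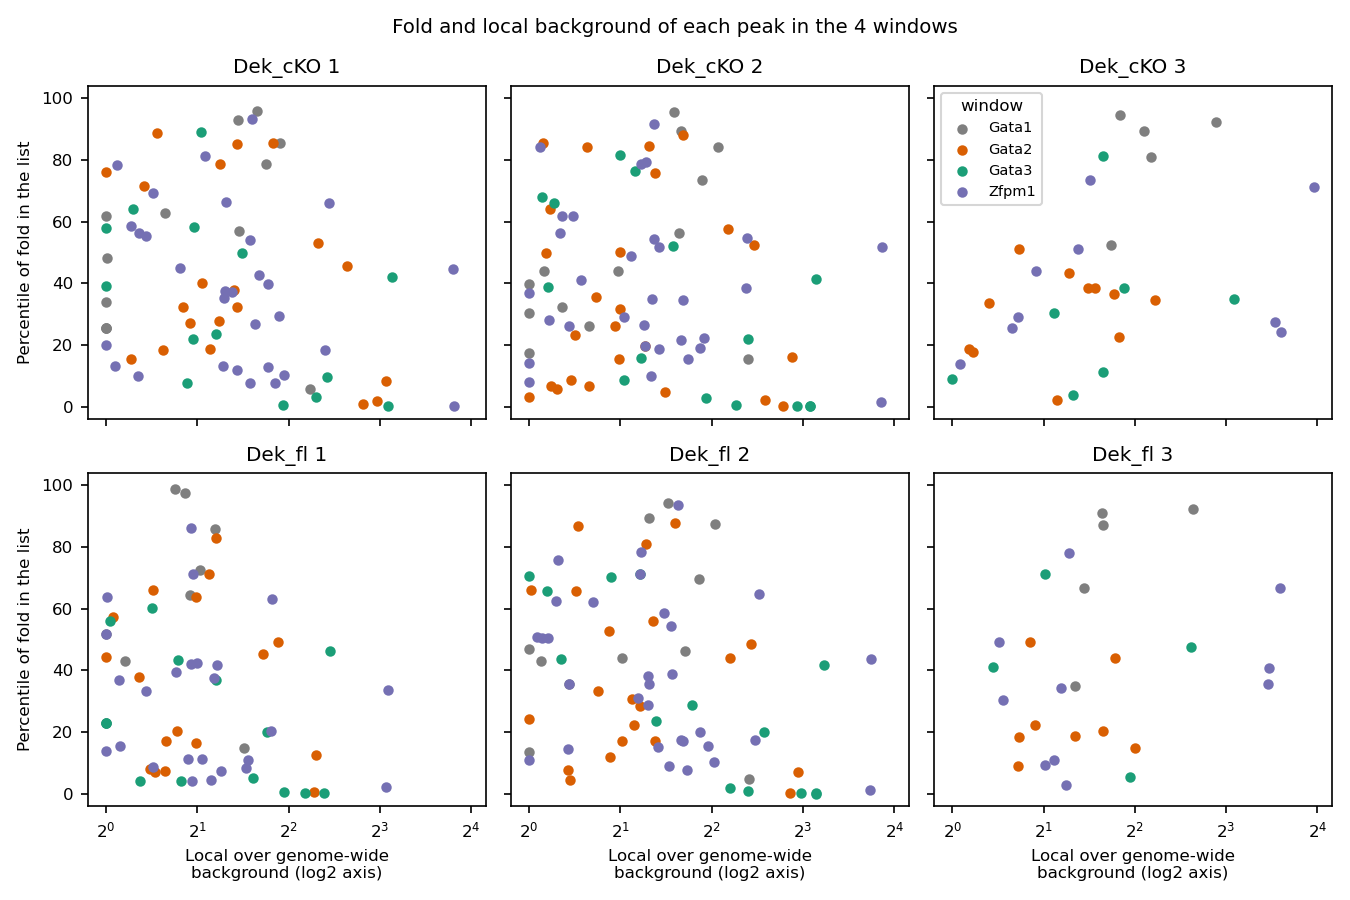
Percentile of the deposited fold within its list (vertical axis, percent) against the local over the genome-wide background pileup (horizontal log2 axis) for each peak of the 4 windows, with 1 panel per library, Dek_cKO in the upper and Dek_fl in the lower panels, and colours for the windows. The Zfpm1 start region, on a local background 8.51- to 15.6-fold over the genome-wide one, has percentiles of fold between 33.6 and 71.2.

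Over the 4 windows together most regions were called in replicates 1 and 2 alone. Of the 87 regions, 23, or 26.4%, were called in all 6 libraries, against 23.3% of all union regions, with 5 of 15 around Gata1, 6 of 24 around Gata2, 4 of 14 around Gata3 and 8 of 34 around Zfpm1. A further 8 were called in 1 library only. Those called in replicates 1 or 2 but in neither replicate 3 library were 52, or 59.8%, against 65.6% of all regions. All 4 libraries of replicates 1 and 2 called 60 of them, and 56.1% of all union regions. At least 2 Dek_cKO libraries and 0 Dek_fl libraries called 3 regions, those at 60.3 kb from Gata2, 108.5 kb from Gata1 and −12.6 kb from Zfpm1, where this pattern held for 3.19% of all union regions. The opposite pattern was seen for the region 17.5 kb inside Zfpm1 and for 0.344% of all union regions. Within replicate 3 alone, 9 of 36 regions were called in Dek_cKO only and 4 in Dek_fl only, against 20.5% and 9.57% of all regions called there. Within replicates 1 and 2 alone, 3 of 87 were called in both Dek_cKO libraries and neither Dek_fl library, against 3.05% of all regions, and 1 in both Dek_fl libraries and neither Dek_cKO library, against 0.337%.

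Ranks of the 23 shared regions gave no call in either direction, as for 0% of all 19683 shared regions (limma, adjusted p threshold 0.05). In the windows 0 regions had an unadjusted p under 0.05, also with the replicate number as a block, while among all shared regions 68 were higher and 19 lower in Dek_cKO at that level. Rank score differences ran from −0.34 to 0.53 with a median of 0.16, and 15 of 23, or 65.2%, were above 0. Over all shared regions the median was −0.018 and 47.3% were above 0. On the centred pileup scale the median in the windows was 0.013 and 13 of 23 were above 0, or 56.5%, against 45.3% of all shared regions, so that the excess of positive rank differences was smaller there. In 0 of 23 regions did the rank scores of one group all lie above those of the other, which occurred for 2.1% of all shared regions with Dek_cKO above and for 2.27% with Dek_fl above. The following counts were made after values had been seen and are descriptions with no test. On scales that are not ranked over the shared regions alone, folds lay wholly above in Dek_cKO in 4 of 23 regions, against 13.2% of all shared regions, and percentiles of fold in 1 of 23, against 2.4%. Percentiles of −log10 p did so in 4 of 23, against 2.26% of all shared regions. These were the −77 element of Gata2, the Zfpm1 start, the region 67.7 kb from Zfpm1 and the one at 83.9 kb from Gata1, and limma on ranks of −log10 p called 0 regions in either direction, with 57 higher and 49 lower at an unadjusted p under 0.05. The opposite order occurred in 0 of 23 on each of these 3 scales, against 0.0152% of all shared regions for fold, 0.701% for its percentile and 0.157% for the percentile of −log10 p. Among the 60 regions called in all 4 libraries of replicates 1 and 2, both Dek_cKO folds were above both Dek_fl folds in 39, against 65% of all such regions, and the opposite held in 0, against 0.663%. For percentiles of fold these counts were 13, against 22.3%, and 1, against 7.62%. Centred pileups separated the groups in 0 of 23 regions, against 1.33% of all with Dek_cKO above and 2.48% with Dek_fl above. The Dek_cKO lists also differed from the Dek_fl lists in the signal of the shared regions as a whole. The medians stand above with the region just upstream of the Gata3 promoter window, and the part of this difference in these counts was not tested.

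**Figure D4:**
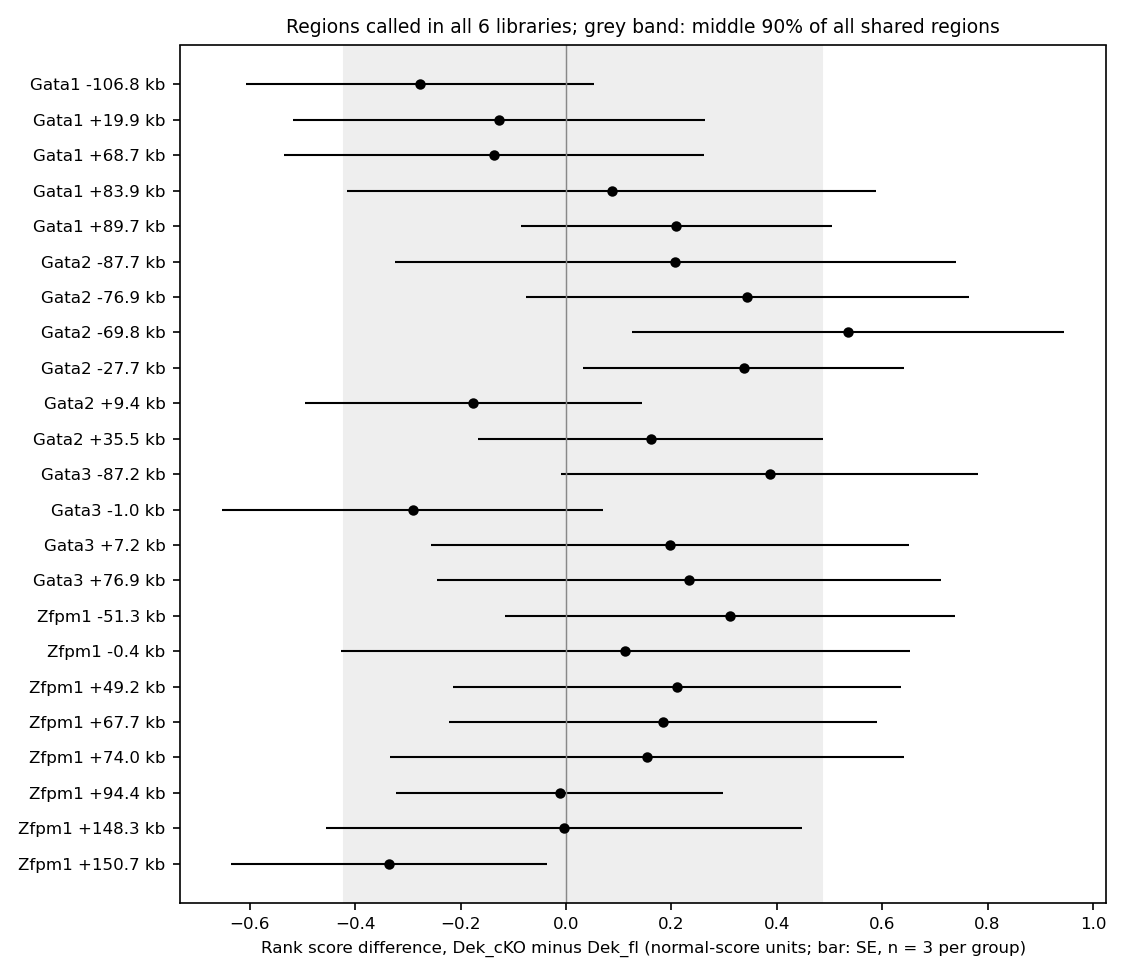
Rank score difference, Dek_cKO minus Dek_fl, in normal-score units for the 23 regions of the 4 windows called in all 6 libraries, labelled by gene and distance from its start; points are differences and bars their standard errors (n = 3 per group), and the grey band spans the middle 90% of all shared regions. The differences run from −0.34 to 0.53 and only the Gata2 region at −69.8 kb lies outside the band.

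The number of peaks per window differed more between the genes than between the groups. Around Gata2 there were 20, 25 and 11 peaks in Dek_cKO libraries 1, 2 and 3 and 17, 21 and 8 in Dek_fl libraries 1, 2 and 3. Around Zfpm1 there were 30, 31 and 9 in Dek_cKO and 25, 31 and 10 in Dek_fl. The mean over libraries placed Zfpm1 at percentile 98.4 and Gata2 at 88.5 of all protein-coding genes with their flanks, while Zfpm1 stood at percentile 79.3 of gene length. Gata1, with 13, 13 and 5 peaks in Dek_cKO and 9, 11 and 5 in Dek_fl, and Gata3, with 14, 15 and 7 in Dek_cKO and 14, 14 and 4 in Dek_fl, stood at percentiles 50.6 and 62.1. As log2 of peaks per 10000 peaks of the list, Dek_cKO minus Dek_fl was 0.028 ± 0.20 for Gata1, 0.085 ± 0.20 for Gata2, 0.060 ± 0.22 for Gata3 and −0.18 ± 0.18 for Zfpm1 (SE, n = 3 per group), with a median of −0.058 over 17411 genes. None of these passed (limma, adjusted p = 1.0), nor did any of the other genes, 0% in either direction, with 20 higher and 31 lower at an unadjusted p under 0.05.

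Gene-end peaks of related genes were counted over lists chosen for their link to the 4 factors, with 48.8% of protein-coding genes as the share that had one in all 6 libraries. Of the other GATA and FOG family genes, Gata4, Gata5, Gata6, Zfpm2 and Trps1, 0 of 5 did, and Gata4 had none in any library. Of the genes listed for proteins that bind GATA factors or share their complexes, 8 of 13 did, among them Tal1, Lyl1, Lmo4, Runx1 and Spi1. Lmo2, Fli1, Erg and Cbfa2t3 had one in 2 Dek_cKO and 2 Dek_fl libraries, and Ldb1 in none. Of the NuRD subunits, 11 of 12 did, the exception being Mta1, with 2 Dek_cKO and 2 Dek_fl libraries.

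Of the erythroid and megakaryocyte genes, 7 of 14 did. Among these were the erythroid factor gene Klf1, the erythropoietin receptor gene Epor, Nfe2, and the platelet genes Itga2b, Gp1ba and Pf4, whereas the globin genes Hbb-b1 and Hba-a1 and the erythroid genes Slc4a1 and Alas2 had none. Of the mast cell and basophil genes 1 of 7 did, the receptor gene Kit, and of the T cell and innate lymphoid genes 0 of 8, with none in any library for the cytokine genes Il5 and Il13. In these 6 lists no gene differed between the groups by 2 or more libraries.

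Genes whose gene-end peak was most like that of a member were sought by the Euclidean distance of the percentiles of fold over the 6 libraries. Gata1, with none, tied with 6547 genes. Zfpm1 was nearest to Glud1 and Shld2, which had the same percentiles, both at a distance of 8.68 percentile points. Gata3, whose peak came within 1 kb of its end in replicates 1 and 2 only, was nearest to Abcg3 at 7.66 and Slc6a13 at 9.0. Gata2, whose percentiles were all under 2, was nearest to Pik3c3 and Frrs1l at 0.669 and 0.688, which had a call in Dek_cKO library 1 only, so that the likeness is one of low values.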

How the data were processed

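The 6 ATAC-seq libraries were deposited as 1 peak list each. The submitters' processing notes name MACS2, Bowtie2, Picard and the build mm10; the sources used here do not give versions, settings or any Tn5 shift. In the deposited lists column 5 is a score, column 7 a fold enrichment (a ratio of the summit to local background), and columns 8 and 9 are −log10 p-values and −log10 q-values. The summit offset in column 10 and the interval are positions in bp as the authors deposited them. The score was 10 times −log10 q in replicates 1 and 2 and 10 times −log10 p in replicate 3 of both groups. The replicate 3 lists were thus processed differently from those of replicates 1 and 2, and each set holds both groups. The score does not set numbers 1 and 2 apart.

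Read depth is unknown. A whole summit pileup k and a local background λ were solved from fold = (k + 1)/(λ + 1) and the Poisson probability of exceeding k. Of the 2 forms of that probability tried, the one with pileups above k matched, within 0.001 for all but 0 to 5 peaks per library. The genome-wide background, taken as the commonest λ, was 5.81, 4.60 and 0.759 in Dek_cKO and 5.03, 7.19 and 1.01 in Dek_fl libraries 1, 2 and 3. The sources used here do not say whether pileups count reads or fragments.

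Genes, start sites and promoter sequences came from RefSeq tables of GRCm38.p6, which match the files' build and hold no exons, so places are gene ends (within 1 kb), bodies or outside genes. Start sites were those of the promoter table. limma 3.58.1 (R 4.3.3) with Benjamini-Hochberg adjustment over all features and a threshold of 0.05 compared rank scores of the 19683 shared regions and log2 of window peaks (plus 0.5) per 10000 peaks for 17411 genes with a mean of at least 3 peaks. The scripts were tested on simulated data. Deviations of same-numbered libraries from their group means had correlations of 0.27, 0.52 and 0.74 for numbers 1, 2 and 3. The number was used as a block in an alternative. Dek_cKO library 1 correlated more with Dek_fl library 2, at 0.57, and Dek_fl library 1 more with Dek_cKO library 2, at 0.31. The pairing by number was thus clear for number 3 and not for numbers 1 and 2.

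Regions named are those at or in a member gene, up to 5 per window of highest mean percentile of fold among flank regions called in 6 libraries, and those called in at least 2 libraries of one group and 0 of the other. Members, lists and tests were chosen with earlier results of these data known. The pileup scales, the local background, the Gata2 element positions, the Tek values and the counts of regions whose groups do not overlap on fold, its percentile or the percentile of −log10 p were added after the data had been seen. One marker gene is not reported here by name.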

Additional observations from a re-analysis of the deposited data

How the results depend on the processing

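No call in the 4 windows was gained or lost in the rank test under 20 alternatives, nor in the peak density test under 16, of which replicate 3 alone gave values and no test, and none of the 23 shared regions passed in any of them. With the replicate number as a block the rank test called 0 regions in the windows and 1 region among all, higher in Dek_cKO. The same block on centred log2 pileup called 1 region among all, lower in Dek_cKO. Uncentred log2 pileup without a block also called 1, lower in Dek_cKO. The calls of 1 group only depended on the lists. With all lists at 23809 peaks, 0 regions were called in Dek_cKO only and 1 in Dek_fl only, against 40 and 72 of 34800 regions in all, where Dek_fl also had more. With replicates 1 and 2 alone the counts were 3 and 1, against 2555 and 282 of 83718, and with replicate 3 alone 9 and 4, against 6148 and 2864 of 29921. Leaving out 1 library at a time gave 1 to 3 in Dek_cKO only, the 3 without Dek_cKO library 3 (2.97% of all regions), and 0 to 1 in Dek_fl only, the 1 without Dek_fl library 3 (0.326% of all). A −log10 q of at least 5, merging at 100 bp and windows of 50 or 200 kb left both counts at 1 and 0.

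Rank score differences in Dek_cKO, none of them called, changed sign for some regions, named here by distance from the start, and the cause was not tested. On log2 pileup centred on the median, with or without the replicate block, these were Gata3 7.23 kb at −0.073, Gata2 −76.9 kb at −0.0041, Gata2 −27.7 kb at −0.043, Zfpm1 49.2 kb at −0.065, Zfpm1 74.0 kb at −0.034, Gata1 68.7 kb at 0.0034, Gata1 19.9 kb at 0.091 and Gata1 −106.8 kb at 0.079. Uncentred log2 pileup, which shifts the median of all shared regions by 0.49, gave Gata3 −1.03 kb 0.42, Gata2 9.37 kb 0.42, Zfpm1 94.4 kb 0.45, Zfpm1 148.3 kb 0.40, Zfpm1 150.7 kb 0.26, Gata1 68.7 kb 0.51, Gata1 19.9 kb 0.59 and Gata1 −106.8 kb 0.58. Ranks of summit pileup gave Gata3 7.23 kb −0.068, Zfpm1 49.2 kb −0.038, Gata1 68.7 kb 0.013, Gata1 19.9 kb 0.12 and Gata1 −106.8 kb 0.095. Ranks of −log10 p gave Zfpm1 148.3 kb 0.014, Gata1 19.9 kb 0.062 and Gata1 −106.8 kb 0.013. Replicates 1 and 2 alone gave Gata3 7.23 kb −0.43, Gata2 −87.7 kb −0.047, Zfpm1 49.2 kb −0.069, Zfpm1 94.4 kb 0.046, Zfpm1 148.3 kb 0.10 and Gata1 83.9 kb −0.13, and replicate 3 alone gave Gata3 −87.2 kb −0.41, Gata2 35.5 kb −0.41, Zfpm1 −51.3 kb −0.26, Zfpm1 74.0 kb −0.26, Gata1 19.9 kb 0.19 and Gata1 −106.8 kb 0.033. A −log10 q of at least 5 gave Zfpm1 148.3 kb 0.042, and equal lists gave Zfpm1 94.4 kb 0.0047.

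Leaving out 1 library changed the sign of 2, 3 and 8 of 23 regions for Dek_cKO libraries 1, 2 and 3 and of 4, 5 and 6 for Dek_fl libraries 1, 2 and 3. The ranges were −0.43 to 0.43 at Gata1 83.9 kb, −0.47 to 0.15 at 68.7 kb and −0.46 to 0.21 at 19.9 kb. At Gata2 they were −0.34 to 0.56 at −87.7 kb, −0.051 to 0.66 at −76.9 kb, −0.34 to 0.040 at 9.37 kb and −0.025 to 0.31 at 35.5 kb. At Gata3 they were −0.16 to 0.58 at 76.9 kb, −0.37 to 0.56 at 7.23 kb and −0.52 to 0.0090 at −1.03 kb. At Zfpm1 they were −0.38 to 0.62 at the start, −0.20 to 0.43 at 49.2 kb, −0.19 to 0.45 at 67.7 kb, −0.31 to 0.59 at 74.0 kb, −0.14 to 0.13 at 94.4 kb and −0.31 to 0.45 at 148.3 kb. The sign held in the other 7, at 0.21 to 0.86 for Gata2 −69.8 kb, 0.20 to 0.47 for Gata2 −27.7 kb, 0.062 to 0.74 for Gata3 −87.2 kb, 0.052 to 0.64 for Zfpm1 −51.3 kb, −0.51 to −0.26 for Zfpm1 150.7 kb, 0.096 to 0.30 for Gata1 89.7 kb and −0.42 to −0.072 for Gata1 −106.8 kb.

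Peak density changed sign for Gata1 with an offset of 2 peaks (−0.00015) and in replicate 3 alone (−0.19), and for Gata3 in replicates 1 and 2 alone (−0.18). Leaving out 1 library gave −0.088 to 0.17 for Gata1, −0.052 to 0.22 for Gata2, −0.076 to 0.23 for Gata3 and −0.23 to −0.080 for Zfpm1. Equal lists, which left 8 of the 23 regions without a value in some library, called 7 genes higher and 9 lower in density among all genes. At a −log10 q of at least 5 the region at Zfpm1 74.0 kb had no value. With 3 libraries per group and unknown depth, a difference that misses the threshold does not show that the groups are alike.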
